A study of Mus musculus with 16 samples.

Results

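The RGS proteins (regulators of G protein signalling) described here are the products of 10 mouse genes, Rgs1, Rgs2, Rgs3, Rgs9, Rgs10, Rgs11, Rgs14, Rgs16, Rgs18 and Rgs19. Their probes were taken as every non-control probe of the array whose gene name is one of these symbols, which gave 17 probes of 10 genes among 41174 probes and 27670 gene names. In 9 of the 10 genes, and 15 of the 17 probes, some group had a signal well above background on 3 or 4 of its 4 arrays, and these entered the tests. Rgs18 did not, and its values are given without a test.

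The study took CD8+Thy1.2+ cells by FACS from female C57BL/6N mice 7 weeks old, split these CD8 T cells by CD44 into memory phenotype (CD44hi) and naive (CD44lo) cells, and cultured each for 4 h. The groups were memory phenotype cells stimulated with 10 ng/mL PMA and 500 ng/mL ionomycin, memory phenotype cells resting in medium alone, naive cells given the same stimulus, and naive cells resting in medium alone. PMA, a phorbol ester, and ionomycin, a calcium ionophore, act downstream of the T cell receptor. All groups share the wild-type strain, the sort and the culture. Memory phenotype cells were defined by CD44 on cells of mice for which no immunisation is stated, and the number of mice behind a sample is not stated in the labels. Each group had 4 samples, each on its own 1-colour Agilent array. The design text states that sorting and stimulation were carried out 4 independent times.

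A heterotrimeric G protein carries the signal of a chemokine, lipid or hormone receptor for as long as its alpha subunit holds GTP. RGS proteins bind that alpha subunit and speed up GTP hydrolysis, which shortens the signal. In lymphocytes they are known above all for tuning the response to chemokines, and so the movement of cells in and out of lymphoid tissue. The members fall into subfamilies: the small R4 proteins (Rgs1, Rgs2, Rgs3, Rgs16 and Rgs18), the R7 proteins that carry a G gamma-like domain (Rgs9 and Rgs11), the R12 proteins (Rgs10 and Rgs14) and the RZ protein Rgs19.

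Levels below are log2 of the processed signal relative to the 75th percentile of the same array, so a level compares groups at 1 probe and never 1 probe with another. A gene with several probes is represented by its brightest one, and the other probes are given beside it. A change is a difference of group means from a limma fit over 18404 genes, with its standard error (SE), and it passed where the Benjamini-Hochberg adjusted p over all of those genes was under 0.05. The 75th percentile of the processed signal lay between 504.3 and 678.0 on the 16 arrays, between 59.3% and 66.5% of their spots were well above background, and arrays of 1 group correlated at 0.978 to 0.995 over the genes tested. Each group was hybridised and scanned on a slide of its own, so slide and group cannot be told apart in any comparison. Each of 11 T cell markers was above background in every group, with summed linear levels (multiples of the 75th percentile) between 379.0 and 581.6.

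With stimulation, 3 of the 9 tested RGS genes rose in both cell types, Rgs16, Rgs1 and Rgs2, all of the R4 subfamily. In memory cells 4 fell, Rgs14, Rgs11, Rgs9 and Rgs10. In naive cells these 4 and Rgs19 fell. Of all 18404 genes, 30.1% rose and 40.8% fell in memory cells, and 36.7% rose and 32% fell in naive cells, so calls in either direction were common and a call by itself sets a member little apart. These shares depend on the scaling: the authors' deposited value table gave 5555 higher and 7038 lower in memory cells and 6121 higher and 6511 lower in naive cells. With normexp background correction the memory split was 6145 higher and 3162 lower when fitted on all spots, and 5741 higher and 5736 lower when fitted without spots far below their local background. The median change of the 9 members was -0.17 in memory cells and -0.40 in naive cells, against -0.21 and 0.11 over all genes. By subfamily, 3 of the 4 tested R4 genes rose in each cell type, with a median change of 2.95 in memory cells and 3.14 in naive cells. Both R7 genes and both R12 genes fell in each cell type.

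Some markers of T cells and of other cell types were also lower after stimulation. Of the 11 T cell markers, 3 rose and 5 fell in memory cells, and 3 rose and 7 fell in naive cells, with limma. Their median changes were -0.28 and -0.43. Over all genes, 30.1% rose and 40.8% fell in memory cells, and 36.7% rose and 32% fell in naive cells. Among markers of monocytes, macrophages and neutrophils, 9 of 12 fell in memory cells and 8 of 12 in naive cells, with limma. For CD4 or regulatory T cells 3 of 4 tested markers fell in each cell type. For B cells 4 of 6 fell in memory cells and 1 of 6 in naive cells, with median changes of -1.06 and -0.29. The linear sums below weigh the brightest genes of a list most. The summed linear level of 8 B cell markers was 0.245 to 0.329 in stimulated memory cells, against 1.44 to 1.73 in resting memory cells, and 0.271 to 0.477 in stimulated naive cells, against 1.72 to 2.30 in resting naive cells, with Pax5 above background on no array. The sum of 5 CD4 or regulatory T cell markers was 1.26 to 1.41 in stimulated memory cells, against 3.87 to 5.11 in resting memory cells, and 0.520 to 0.710 in stimulated naive cells, against 2.77 to 3.72 in resting naive cells, with Foxp3 above background on no array. No stimulated array overlapped with a resting array of its cell type in these sums. Dendritic cell markers went otherwise: with limma, 3 of 6 tested rose and none fell in naive cells, and 1 rose and 1 fell in memory cells. Their sum was 2.02 to 3.31 in stimulated naive cells, against 1.01 to 1.61 in resting naive cells. Of 6 NK cell markers, 4 fell and none rose in memory cells, and 3 fell and 1 rose in naive cells. The part of all these markers in the RGS changes was not tested. In such bulk samples fewer cells of a type and less RNA per cell cannot be told apart.

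**Figure D1:**
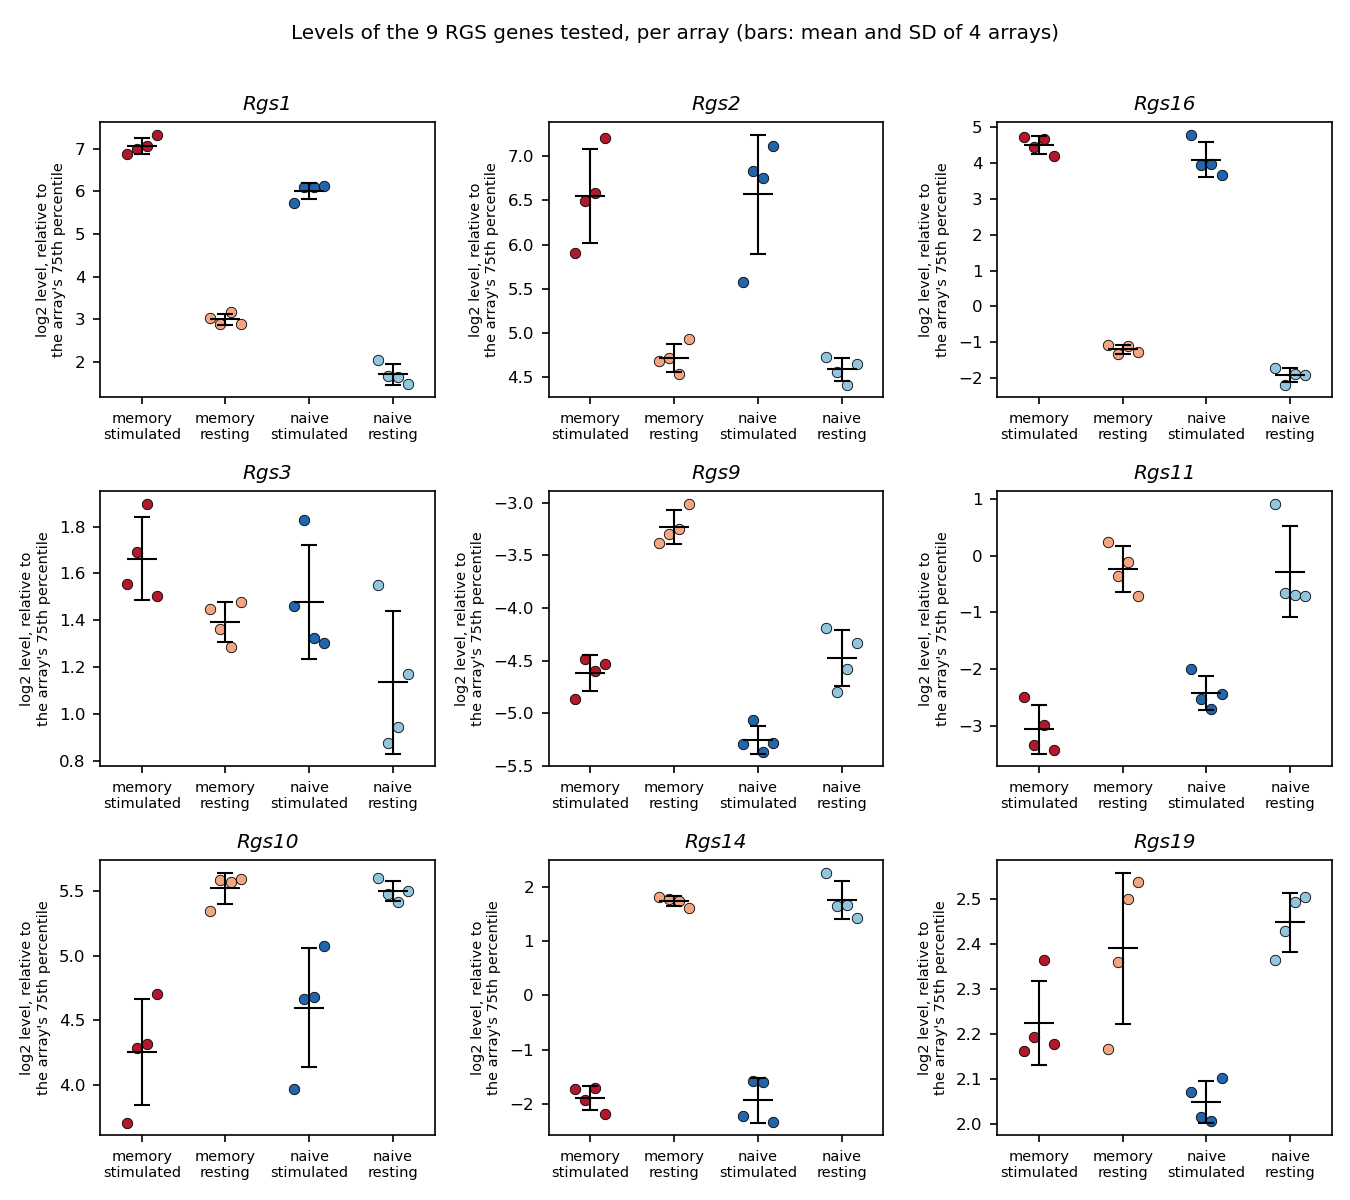
Levels of the 9 tested RGS genes on each of the 16 arrays, as log2 of the signal relative to the 75th percentile of the array (y axis, its range set per gene), by group (x axis); points are arrays, and bars give the mean and SD of 4 arrays. The stimulated arrays of Rgs16, Rgs1 and Rgs2 all lie above the resting ones, and those of Rgs14, Rgs11 and Rgs10 all lie below them.

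The sequences upstream of the annotated start are shown for Rgs16 and Rgs2, since these are the genes that rose in both cell types and have an entry in the RefSeq promoter table (build GRCm38.p6), which holds 6 of the 10 members. The Rgs16 window is chr1:153740103-153740352 on the plus strand and the Rgs2 window chr1:144004150-144004399 on the minus strand, 250 bases each, written 5′ to 3′. Capitals mark matches, on either strand, to CCAAT (the CCAAT box) and TGACG (the CRE half-site, the core to which CREB and ATF factors bind).
Rgs16: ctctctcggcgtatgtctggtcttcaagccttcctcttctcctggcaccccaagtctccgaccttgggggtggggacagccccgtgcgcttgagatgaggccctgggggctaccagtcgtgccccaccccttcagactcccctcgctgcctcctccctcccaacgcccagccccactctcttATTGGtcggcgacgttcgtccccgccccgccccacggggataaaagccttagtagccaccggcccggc
Rgs2: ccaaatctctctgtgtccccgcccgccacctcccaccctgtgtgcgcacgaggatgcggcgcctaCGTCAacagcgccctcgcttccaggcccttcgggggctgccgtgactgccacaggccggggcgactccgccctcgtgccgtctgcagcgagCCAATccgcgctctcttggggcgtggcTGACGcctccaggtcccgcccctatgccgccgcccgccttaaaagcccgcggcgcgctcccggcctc
The Rgs16 window held 1 CCAAT match, as ATTGG on the opposite strand, and the Rgs2 window held 1 CCAAT match and 2 TGACG matches. Among 32851 windows of the same length in the table, 33.8% held CCAAT and 17.8% held TGACG, so neither match is rare. TGANTCA (the AP-1 site, in 6.75% of all windows), GGAAA (the NFAT core, in 55.6%), TGACGTCA (the full CRE, which contains the half-site, in 1.55%) and TATAAA (the TATA box, in 12.4%) were not found in these letters. PMA and ionomycin are known to activate AP-1 and NFAT factors. A match or its lack in this short window says nothing about binding.

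Rgs16 (probe chr1:153706094-153706153, plus strand, mm7), which blunts Gi and Gq signals and is known as an activation-induced RGS gene of lymphocytes, had the largest change of the 9 members in both cell types. Its levels were 4.74, 4.45, 4.69 and 4.20 in stimulated memory cells, against -1.08, -1.33, -1.11 and -1.28 in resting memory cells. In naive cells they were 4.80, 3.96, 3.98 and 3.68 after stimulation, against -1.72, -2.18, -1.89 and -1.91 at rest. The stimulated arrays lay far above the resting arrays in both cell types, with no overlap. The change was 5.72 ± 0.20 (SE) in memory cells, or 52.8-fold, and 6.03 ± 0.20 in naive cells, or 65.3-fold, with limma adjusted p of 3.44e-12 and 1.87e-12. By size it ranked 38 of the 5534 genes that rose in memory cells and 22 of the 6761 that rose in naive cells.

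Rgs1 (probe chr1:144171113-144171172, minus strand, mm7), an inhibitor of chemokine receptor signalling that is known to rise in activated B and T cells, also rose in both. Its levels were 6.88, 6.99, 7.07 and 7.34 in stimulated memory cells, against 3.03, 2.89, 3.17 and 2.90 in resting memory cells. Naive cells had levels of 5.72, 6.10, 6.11 and 6.12 after stimulation, against 2.04, 1.67, 1.65 and 1.47 at rest. No 2 of the 4 groups overlapped, and the order was stimulated memory, stimulated naive, resting memory, resting naive. The change was 4.07 ± 0.14 (SE) in memory cells, or 16.8-fold, and 4.31 ± 0.14 in naive cells, or 19.8-fold, with limma adjusted p of 3.49e-12 and 1.85e-12.

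Rgs2, an R4 protein with a known preference for Gq, rose less. At its brighter probe (chr1:143927444-143927503, minus strand, mm7) the levels were 5.90, 6.49, 6.58 and 7.20 in stimulated memory cells, against 4.69, 4.72, 4.54 and 4.93 in resting memory cells. The naive arrays gave 5.58, 6.83, 6.75 and 7.11 after stimulation, against 4.73, 4.56, 4.42 and 4.65 at rest. The stimulated arrays were all above the resting ones, but array 1 was the lowest stimulated array in both cell types. The change was 1.82 ± 0.29 (SE) in memory cells and 1.97 ± 0.29 in naive cells, with limma adjusted p of 4.25e-05 and 1.95e-05. Stimulated memory and stimulated naive cells overlapped, as did resting memory and resting naive cells. The second Rgs2 probe (chr1:143926378-143926437) lies further towards the 3′ end. It changed by 0.53 ± 0.26 in memory cells, which did not pass (limma adjusted p = 0.0797 over all probes), and rose by 1.07 ± 0.26 in naive cells (0.00192). Its memory arrays lay at -3.73 to -2.82 after stimulation and -3.88 to -3.79 at rest, with no overlap. Its naive arrays lay at -3.98 to -2.63 after stimulation and -4.55 to -3.92 at rest, and these overlapped. Both probes had positive mean differences, of unequal size.

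Of the remaining R4 genes, Rgs18 is known from platelets, megakaryocytes and myeloid cells, where it restrains Gi and Gq signals. Neither of its probes was well above background on any array of stimulated memory, stimulated naive or resting naive cells, and 1 of them was so on 1 of the 4 resting memory arrays. At that probe (chr1:144678980-144679039, minus strand, mm7) the levels were -6.15, -5.35, -5.61 and -6.02 in resting memory cells, and between -7.94 and -6.92 on the 12 arrays of the other groups. The resting memory arrays did not overlap with any other group there, while at the other probe the groups overlapped. No fold is given, since the signals were near background. The summed linear level of 12 monocyte, macrophage and neutrophil markers was also highest in resting memory cells, at 14.6 to 23.0, with 3.03 to 4.70 in stimulated memory, 1.86 to 3.38 in stimulated naive and 8.87 to 15 in resting naive cells, so that the resting groups overlapped. The sum of 7 erythrocyte, platelet and megakaryocyte markers was 0.400 to 0.546 in resting memory cells and 0.189 to 0.423 in the other groups, with Gp9 above background on no array. Their part in the Rgs18 signal was not tested.

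In stimulated cells, members of the R12 subfamily were lower. Rgs14 carries, besides its RGS domain, domains that bind Ras-like GTPases and a GoLoco motif that holds Gi alpha subunits in their GDP form. At its probe (chr13:54465028-54465087, plus strand, mm7) the levels were -1.72, -1.92, -1.70 and -2.18 in stimulated memory cells, against 1.80, 1.78, 1.74 and 1.60 in resting memory cells. Naive cells showed -2.22, -1.57, -1.59 and -2.33 after stimulation, against 2.26, 1.65, 1.67 and 1.43 at rest. Groups of different stimulation did not overlap, and the cell types overlapped within each. Rgs14 fell by 3.61 ± 0.20 (SE) on the log2 scale in memory cells, a 12.2-fold lower level, and fell by 3.68 ± 0.20 in naive cells, a 12.8-fold lower level (limma adjusted p of 3.74e-10 and 3.17e-10). By size it ranked 279 of the 7504 genes that fell in memory cells and 250 of the 5893 that fell in naive cells.

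Rgs10 (probe chr7:124470300-124470359, minus strand, mm7), a protein of little more than an RGS domain that is abundant in leukocytes, fell less. Its levels were 3.71, 4.28, 4.32 and 4.70 in stimulated memory cells, against 5.34, 5.59, 5.57 and 5.60 in resting memory cells. For naive cells the levels were 3.97, 4.67, 4.68 and 5.08 after stimulation, against 5.60, 5.48, 5.41 and 5.50 at rest. Every stimulated array lay below every resting one, and array 1 was again the lowest stimulated array in both cell types. Rgs10 fell by 1.27 ± 0.21 (SE) in memory cells, and fell by 0.90 ± 0.21 in naive cells, with limma adjusted p of 7.64e-05 and 0.0016.

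The R7 proteins pair with the G beta subunit Gnb5 and are best known from neurons and the retina. At the Rgs11 probe (chr17:24394275-24394334, plus strand, mm7) the levels were -2.50, -3.35, -2.99 and -3.44 in stimulated memory cells, against 0.25, -0.37, -0.10 and -0.72 in resting memory cells. Levels in naive cells were -2.00, -2.53, -2.71 and -2.45 after stimulation, against 0.92, -0.66, -0.69 and -0.71 at rest. Stimulated and resting arrays did not overlap in either cell type, and array 1 of the resting naive cells stood well above the other 3. Rgs11 fell by 2.83 ± 0.34 (SE) in memory cells, to a 7.11-fold lower level, and fell by 2.14 ± 0.34 in naive cells, to a 4.40-fold lower level (limma adjusted p of 2.17e-06 and 4.28e-05). Its probe was designed on a cDNA clone record, not on a RefSeq transcript.

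Rgs9, whose retinal form ends the light response, gave low signals. At its probe (chr11:109334536-109334595, minus strand, mm7) the levels were -4.87, -4.48, -4.60 and -4.53 in stimulated memory cells, against -3.38, -3.29, -3.25 and -3.01 in resting memory cells. In naive cells the levels were -5.29, -5.06, -5.37 and -5.29 after stimulation, with 3 of the 4 arrays well above background, against -4.19, -4.80, -4.58 and -4.34 at rest. Stimulated arrays lay below resting ones within each cell type, and stimulated memory and resting naive cells overlapped. Rgs9 fell by 1.39 ± 0.14 (SE) in memory cells and fell by 0.77 ± 0.14 in naive cells (limma adjusted p of 3.56e-07 and 0.000164). With normexp background correction, fitted without spots far below their local background and added after seeing the data, the naive change was -0.07 (adjusted p = 0.542).

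Rgs19 (brightest probe chr2:182189653-182189712, minus strand, mm7), also named GAIP, an RZ protein and a partner of Gi alpha subunits, changed little. At its brighter probe the levels were 2.16, 2.19, 2.36 and 2.18 in stimulated memory cells, against 2.17, 2.36, 2.50 and 2.54 in resting memory cells, and these overlapped. Among naive cells the levels were 2.07, 2.01, 2.01 and 2.10 after stimulation, against 2.36, 2.43, 2.49 and 2.50 at rest, and these did not. The naive change of -0.40 ± 0.10 (SE) passed (limma adjusted p = 0.00221), and the memory change of -0.17 ± 0.10 did not (0.145). The memory change passed under quantile scaling, at -0.46 (adjusted p = 0.000158), and in the authors' deposited value table, at -0.49 (3.05e-05), and also without resting memory array 1, at -0.24 (0.0379). The second probe gave -0.18 ± 0.12 in memory cells (0.178) and -0.50 ± 0.12 in naive cells (0.0013, both over all probes).

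**Figure D2:**
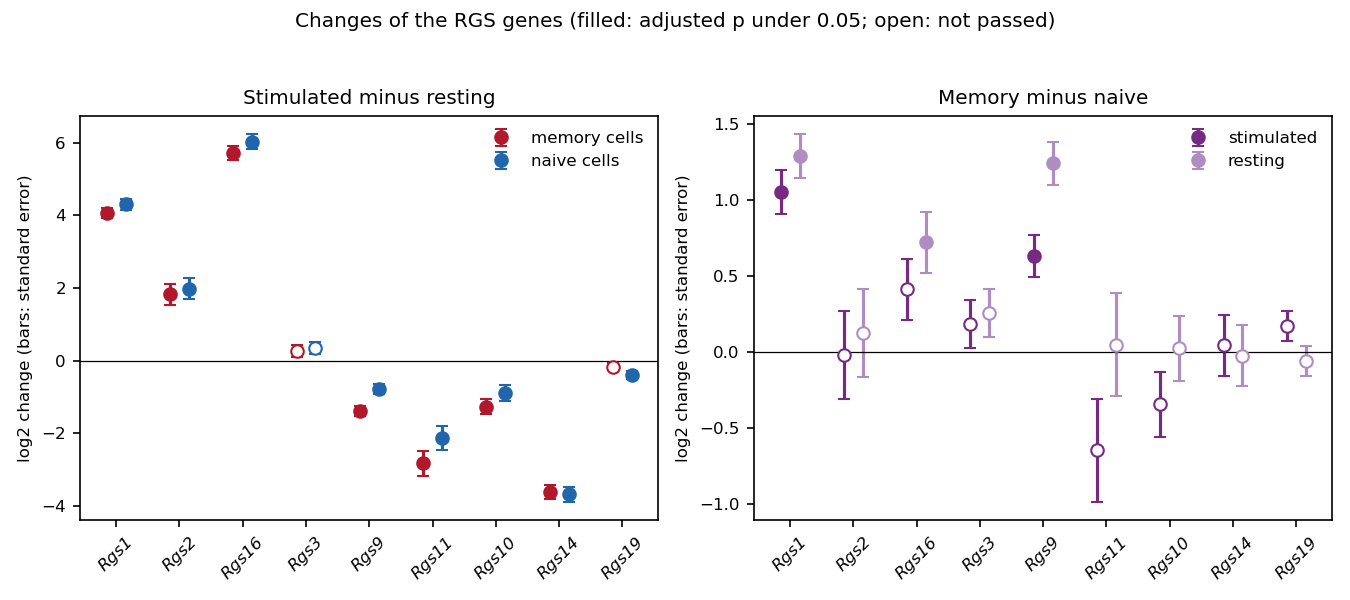
Log2 change of each of the 9 tested RGS genes (y axis) between stimulated and resting cells (left) and between memory and naive cells (right), with the SE of the fit as bars; filled points passed at an adjusted p under 0.05. Rgs16 (5.72 and 6.03), Rgs1 and Rgs2 stand above zero on the left for both cell types, and Rgs1 (1.06 and 1.29) and Rgs9 (0.63 and 1.24) on the right for both conditions.

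Memory and naive cells were then compared in the same condition. At rest, 3 of the 9 RGS genes were higher in memory cells, Rgs1, Rgs9 and Rgs16, against 13.9% of all genes. None was lower (limma, also 0 at an unadjusted p under 0.05), against 7.47% of all genes. After stimulation, 2 were higher in memory cells, Rgs1 and Rgs9, against 9.86% of all genes. None was lower (limma, again 0 at an unadjusted p under 0.05), against 14.2%. The split over all genes at rest, 2550 higher and 1375 lower, depends on the scaling: the authors' deposited value table gave 2222 higher and 2205 lower.

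Rgs1 was higher in memory cells by 1.29 ± 0.14 (SE) at rest, or 2.45-fold, with levels of 2.89 to 3.17 in memory and 1.47 to 2.04 in naive cells (limma adjusted p = 1.16e-05). After stimulation it was higher by 1.06 ± 0.14, or 2.08-fold, with levels of 6.88 to 7.34 in memory and 5.72 to 6.12 in naive cells (9.11e-05). The groups did not overlap in either condition. Rgs16 was higher in memory cells at rest by 0.72 ± 0.20 (0.0191), with levels of -1.33 to -1.08 in memory and -2.18 to -1.72 in naive cells, again with no overlap. That call rests on few arrays: it became 0.0549 without resting memory array 1 and 0.0644 without resting naive array 2. After stimulation the Rgs16 difference of 0.41 ± 0.20 did not pass (0.153), and the arrays of the groups overlapped. Without stimulated naive array 1, which was the highest of its group, it was 0.65 (0.00676). With the array number fitted as a block it passed as well, at 0.41 (0.0496).

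Rgs9 was higher in memory cells by 1.24 ± 0.14 (SE) at rest, with levels of -3.38 to -3.01 in memory and -4.80 to -4.19 in naive cells (limma adjusted p = 1.36e-05). After stimulation it was higher by 0.63 ± 0.14, with levels of -4.87 to -4.48 in memory and -5.37 to -5.06 in naive cells (0.0044). Neither pair of groups overlapped. The stimulated difference was 0.08 (0.618) with the normexp correction named above. Rgs2, Rgs10, Rgs11, Rgs14 and Rgs19 did not pass in either condition. Their differences at rest lay between -0.06 and 0.13 and those after stimulation between -0.65 (Rgs11) and 0.17 (Rgs19). Without stimulated naive array 1, Rgs10 was lower in stimulated memory cells, at -0.56 (0.0389). With the array number fitted as a block, Rgs11 was lower there, at -0.65 (0.0267).

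Markers of other cells moved with the same contrasts. At rest, 5 of 6 NK cell markers, 5 of 6 tested dendritic cell markers, 4 of 12 monocyte, macrophage and neutrophil markers and 3 of 4 tested markers of CD4 or regulatory T cells were higher in memory cells, and none of the 6 tested B cell markers was, with limma. After stimulation these counts were 6 of 6, 1 of 6, 3 of 12 and 2 of 4, and again 0 of 6 for B cells (at an unadjusted p under 0.05, 0 after stimulation and 1 at rest). Over all genes, 13.9% were higher in memory cells at rest and 9.86% after stimulation. The NK cell sum was 6.99 to 7.64 in resting memory and 1.54 to 2.42 in resting naive cells, and 5.27 to 7.32 in stimulated memory and 2.11 to 3.11 in stimulated naive cells. The dendritic cell sum was 3.23 to 4.80 in resting memory and 1.01 to 1.61 in resting naive cells, and 3.57 to 6.21 in stimulated memory and 2.02 to 3.31 in stimulated naive cells. Memory and naive arrays did not overlap in either sum, nor in that of the CD4 or regulatory T cell markers given above. Among the NK cell markers, Eomes and Klrg1 are also made by memory CD8 T cells. The part of these markers in the RGS differences was not tested.

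Whether the 2 cell types responded differently was tested as the memory response minus the naive response. Only Rgs9 passed among the 9 members, at -0.61 ± 0.20 (SE; limma adjusted p = 0.0428), a stronger fall in memory cells. None passed in the other direction (limma, also 0 at an unadjusted p under 0.05). Over all genes, 14.1% were lower and 5.61% higher in this test, or 2600 and 1033 genes, a split that was 1970 and 1680 in the authors' deposited value table and 1930 and 1323 under quantile scaling. The Rgs9 call did not hold in most of the alternatives tried: over 27 of them the difference ran from -0.71 to 0.45 and the adjusted p from 0.0155 to 0.754. It was lost without stimulated memory array 1 or 3, resting memory array 2, 3 or 4, any of the stimulated naive arrays, or resting naive array 2 or 3, with adjusted p of 0.0508 to 0.0908. For the other 8 genes the difference lay between -0.69 ± 0.48 (Rgs11) and 0.23 ± 0.14 (Rgs19). Without resting naive array 1, the highest of its group, the Rgs11 difference was -1.10 and passed (0.0317). Rgs16 and Rgs1, the members with the largest rises, had differences of -0.31 ± 0.29 and -0.23 ± 0.20.

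**Figure D3:**
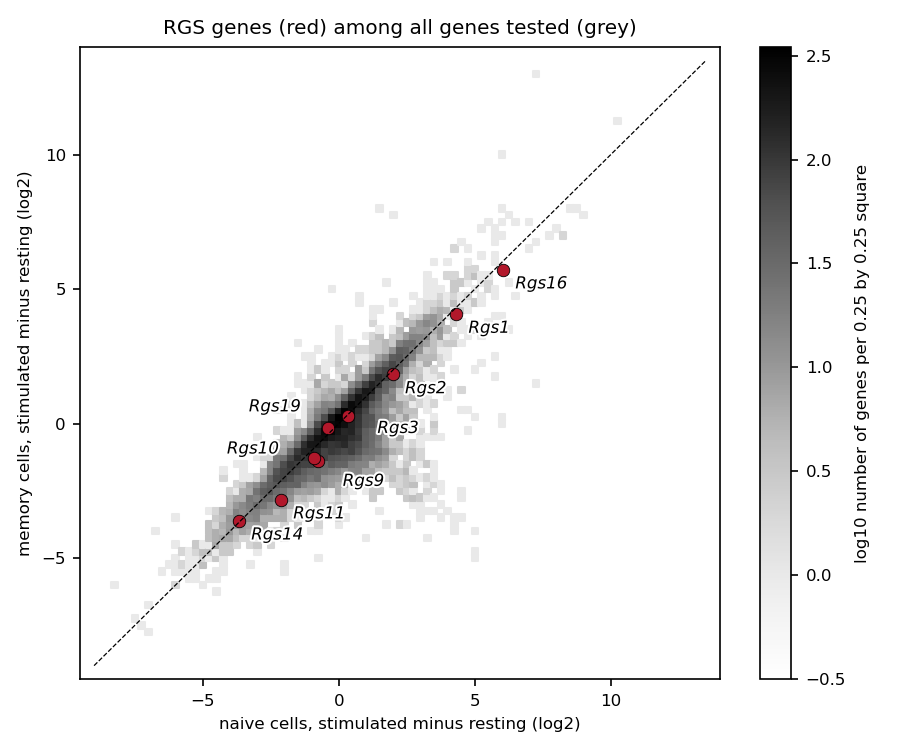
Log2 change with stimulation in memory cells (y axis) and naive cells (x axis) for the 18404 genes tested, counted per square of 0.25 by 0.25 (grey, log10 scale), with the 9 RGS genes in red; the dashed line marks equal change. The RGS genes lie along the line from Rgs14 (-3.61 in memory and -3.68 in naive cells) at the lower left to Rgs16 (5.72 in memory and 6.03 in naive cells) at the upper right.

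Rgs3 is an R4 gene with several transcript forms that share the RGS domain at their 3′ end and differ upstream. It had 5 probes, on chromosome 4 of build mm7, plus strand. From 5′ to 3′ these are A_51_P211980 at chr4:62093420-62093479, A_52_P522134 at chr4:62123297-62123356, A_52_P261868 within chr4:62134072-62134749, A_51_P223583 within chr4:62134854-62135772 and A_51_P253320 at chr4:62135803-62135862. The third and the fourth span 678 and 919 genomic bases with 60 bases of probe, so each crosses an intron. Per the file headers, the first probe was designed on another RefSeq transcript record than the 4 others, and no genome or exon annotation of this build was used here. The sequences of the brightest probe and of the 3 probes nearest the 3′ end are shown, because these gave different results between the cell types. They are the probe letters in the deposited files, in lower case throughout since no motif is marked.
A_52_P522134: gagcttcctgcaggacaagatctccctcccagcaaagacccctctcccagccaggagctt
A_52_P261868: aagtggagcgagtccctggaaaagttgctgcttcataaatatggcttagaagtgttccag
A_51_P223583: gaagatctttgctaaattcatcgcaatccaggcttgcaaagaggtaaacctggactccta
A_51_P253320: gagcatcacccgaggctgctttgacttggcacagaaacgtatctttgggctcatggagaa
Each of these 4 sequences can be read in at least 1 frame with no stop codon, which 60 bases often allow by themselves.

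At the brightest Rgs3 probe, A_52_P522134, the levels were 1.56, 1.69, 1.90 and 1.50 in stimulated memory cells, against 1.45, 1.36, 1.28 and 1.48 in resting memory cells. Naive levels were 1.46, 1.83, 1.33 and 1.30 after stimulation, against 1.55, 0.87, 0.95 and 1.17 at rest. Stimulated and resting arrays did not overlap in memory cells and overlapped in naive cells, and memory and naive arrays overlapped in each condition. None of the changes passed: 0.27 ± 0.16 (SE) in memory cells (limma adjusted p = 0.136), 0.34 ± 0.16 in naive cells (0.0629), 0.26 ± 0.16 between memory and naive cells at rest (0.265) and 0.18 ± 0.16 after stimulation (0.431). The naive change passed without resting naive array 1, at 0.48 (0.00772), and without stimulated naive array 4, at 0.40 (0.0494). It also passed without the 4 arrays numbered 1, an alternative added after seeing the data, at 0.49 (0.0195), and with scaling to the median of probes above background on all arrays, at 0.40 (0.0334).

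The other 4 probes were higher in memory cells. At the most 5′ probe, A_51_P211980, the levels were 2.17, 2.19, 2.40 and 1.91 in stimulated memory cells, against 0.53, 1.12, 1.16 and 1.09 in stimulated naive cells. At rest they were 1.79, 1.76, 1.57 and 1.58 in memory cells, against 0.69, 0.39, 0.41 and 0.43 in naive cells. Every memory array lay above every naive one. The difference was 1.19 ± 0.15 (SE) after stimulation and 1.20 ± 0.15 at rest, with limma adjusted p over all probes of 4.58e-05 and 3.63e-05. This probe was also the only one of the 5 that rose with stimulation, by 0.49 ± 0.15 in memory cells (0.00804) and 0.50 ± 0.15 in naive cells (0.00759).

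At the 3 probes nearest the 3′ end, memory cells were higher than naive cells by 0.73 to 0.82 after stimulation and by 1.03 to 1.28 at rest, with limma adjusted p over all probes between 0.0102 and 0.0245, and between 0.000451 and 0.00235. Memory and naive arrays did not overlap at any of them in either condition. None of them passed with stimulation, where their changes were between -0.28 and -0.17 in memory cells and between 0.04 and 0.27 in naive cells. With the mean of the 5 probes in place of the brightest one, Rgs3 was higher in memory cells by 0.73 after stimulation (adjusted p = 0.00248) and by 0.99 at rest (0.000235). So the Rgs3 result depends on the probe, and with it the count of RGS genes higher in memory cells.

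To set these probes side by side within an array, the log2 ratio of each of the 2 upstream probes to the mean of the 3 probes nearest the 3′ end was compared between groups, a comparison chosen after the values were seen. For A_52_P522134 this ratio was lower in memory than in naive cells by 0.58 after stimulation and by 0.90 at rest. For A_51_P211980 it was higher with stimulation by 0.73 in memory cells and by 0.34 in naive cells. In two-sided exact permutation tests of 4 against 4 arrays, where the smallest possible p is 0.0286, the 8 such comparisons gave adjusted p of 0.114 or more. None passed, but adjustment over 8 comparisons with so few arrays leaves this test little room to pass, so its outcome says little either way. As a description, the A_52_P522134 ratio was 1.38 to 1.93 in resting memory cells and 2.25 to 3.05 in resting naive cells, with no overlap. The A_51_P211980 ratio was 2.39 to 2.93 in stimulated memory cells and 1.67 to 2.03 in resting memory cells, again with no overlap. Both of these had the smallest possible p before adjustment.

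**Figure D4:**
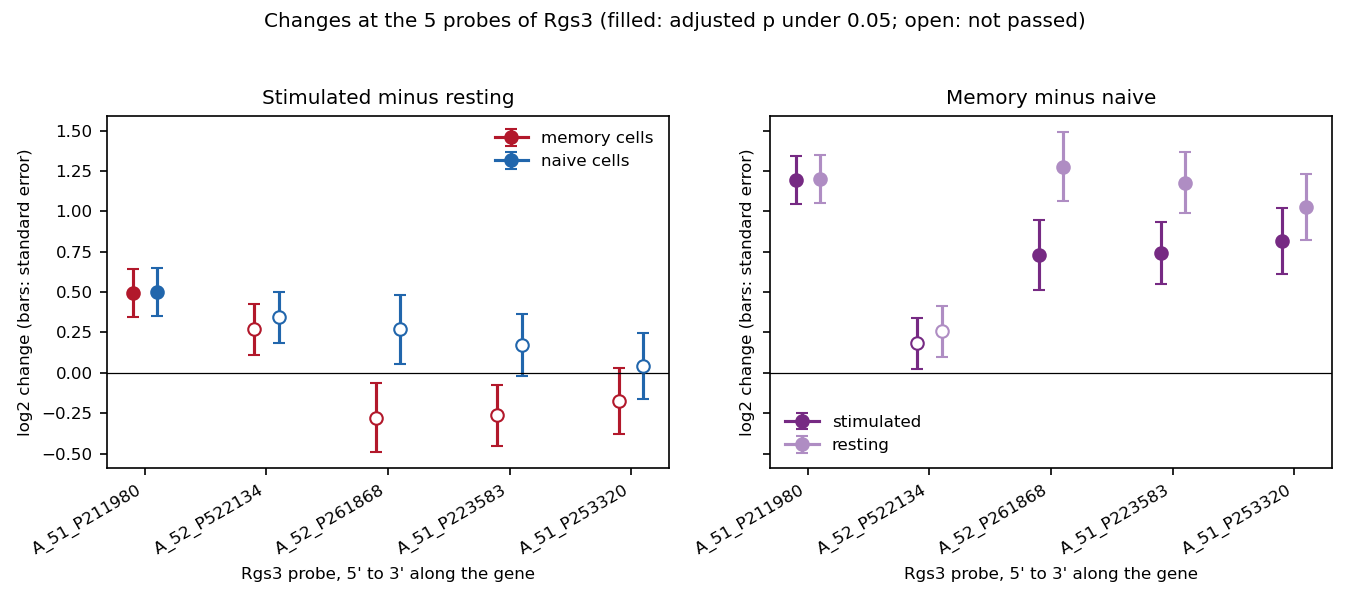
Log2 change (y axis) at the 5 probes of Rgs3, in order from 5′ to 3′ (x axis), between stimulated and resting cells (left) and between memory and naive cells (right), with the SE as bars; filled points passed at an adjusted p under 0.05 over all probes. Memory cells were higher at 4 of the 5 probes, and A_52_P522134 was the exception in both conditions.

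The stimulated arrays numbered 1 and 4 lay at opposite ends of their groups at several members. On arrays 1, Rgs1, Rgs2 and Rgs10 were lowest in both cell types, and Rgs11 and Rgs16 were highest. There Rgs16 was above the mean of its group by 0.22 in memory cells and by 0.70 in naive cells. On arrays 4, Rgs1, Rgs2 and Rgs10 were highest in both cell types, and Rgs14 and Rgs16 were lowest. Rgs2 deviated from the mean of its group by 0.65 in memory and 0.54 in naive cells on arrays 4, and by -0.64 and -0.99 on arrays 1. Without the 4 arrays numbered 1, tried after their values were seen, 2 members were lower in the memory response than in the naive response, Rgs9 and Rgs11. Rgs11 was then also lower in stimulated memory than in stimulated naive cells by 0.69 (limma adjusted p = 0.0124). Among the direct effects of stimulation, none of the calls for Rgs1, Rgs2, Rgs10, Rgs14 and Rgs16 was lost in this or any other alternative tried. With normexp fitted on all spots, which gave background estimates far from those of the other arrays on 3 stimulated arrays, Rgs9 changed sign in both cell types (0.78 in memory and 0.34 in naive cells, adjusted p = 0.196 and 0.634). Under it Rgs11 no longer passed in memory cells (-1.06, 0.0729) or naive cells (-1.26, 0.0553), nor Rgs19 in naive cells (-0.44, 0.136). The higher levels in memory cells no longer passed for Rgs1 after stimulation (0.64, 0.336), for Rgs16 at rest (0.56, 0.398), or for Rgs9 after stimulation (0.90, 0.336) and at rest (0.46, 1).

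**Figure D5:**
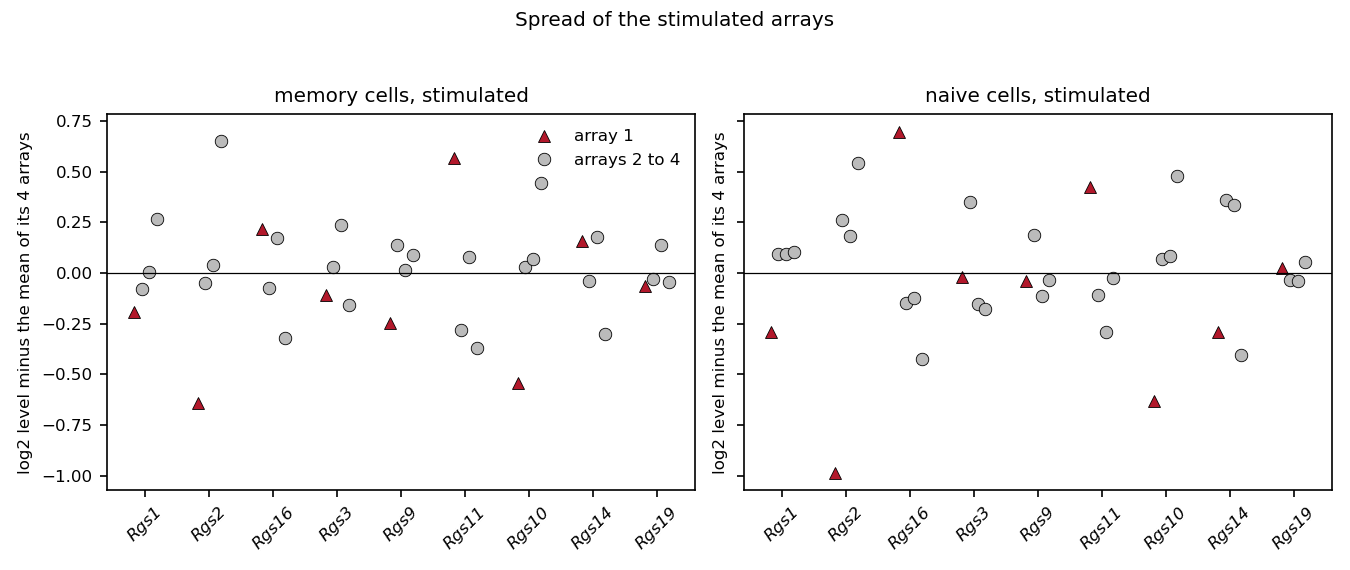
Deviation of each stimulated array from the mean of its 4 arrays (y axis, log2) for the 9 tested RGS genes (x axis), in memory cells (left) and naive cells (right); triangles are the arrays numbered 1 and circles the other 3. The triangles are lowest for Rgs1, Rgs2 and Rgs10 and highest for Rgs11 and Rgs16 in both panels.

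Of the 10 members, 4 lie on chromosome 1. In build mm7 the Rgs2 and Rgs1 probes are 244.7 kb apart, those of Rgs1 and Rgs18 507.9 kb apart, and Rgs16 is a further 9027 kb away. The 3 members that rose are all among these 4, and the fourth, Rgs18, was near background. This holds for the listed members only, since positions of the other Rgs genes were not compared. Of the 9 other numbered Rgs genes on the array, 7 were above background on no array. The R12 gene Rgs12, whose protein also carries a GoLoco motif, fell by 2.77 ± 0.20 (SE) in memory cells and fell by 2.56 ± 0.20 in naive cells (limma adjusted p of 7.17e-09 and 1.79e-08), as did Rgs10 and Rgs14 of its subfamily. Rgs8, an R4 gene known from neurons, rose by 1.10 ± 0.21 in naive cells (0.000214) at a low signal, and did not pass in memory cells.

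Other proteins with an RGS domain include the G protein-coupled receptor kinases and some sorting nexins. Of 14 such genes, 1 rose and 10 fell in memory cells, and 2 rose and 9 fell in naive cells, with median changes of -0.91 and -0.78. Of all genes, 30.1% rose and 40.8% fell in memory cells, and 36.7% rose and 32% fell in naive cells. These shares also stand beside the stimulation counts of the lists below. Arhgef1 fell by 2.93 ± 0.13 (SE) in memory cells and fell by 3.32 ± 0.13 in naive cells. Grk2, the receptor kinase that marks active receptors for arrestin, fell by 2.45 ± 0.11 in memory cells and fell by 1.87 ± 0.11 in naive cells. Snx14, a sorting nexin, fell by 2.76 ± 0.16 in memory cells and fell by 2.11 ± 0.16 in naive cells.

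Genes of the G protein subunits moved in both directions, as did genes as a whole. Of 10 tested G alpha genes, 1 rose and 5 fell in memory cells, and 2 rose and 2 fell in naive cells (medians -0.30 and -0.19). Gnai2, the main Gi alpha subunit of lymphocytes, fell by 2.15 ± 0.27 (SE) in memory cells and fell by 1.97 ± 0.27 in naive cells. Gnai1 fell by 2.85 ± 0.26 in memory cells and fell by 2.78 ± 0.26 in naive cells. Gnaq, the Gq alpha subunit, rose by 1.32 ± 0.12 in memory cells and by 0.42 ± 0.12 in naive cells. Of 13 tested G beta and gamma genes, 4 rose and 5 fell in memory cells, and 5 rose and 4 fell in naive cells (medians 0.19 and -0.01). Gng12 rose by 2.26 ± 0.13 in memory cells and by 2.31 ± 0.13 in naive cells, and Gnb4 fell by 2.73 ± 0.31 in memory cells and fell by 3.56 ± 0.31 in naive cells.

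Downstream of the G proteins, none of the 16 tested effector genes rose in either cell type (limma, also 0 at an unadjusted p under 0.05), while 12 fell in memory cells and 11 in naive cells (medians -1.02 and -1.05). Adcy7, an adenylyl cyclase of leukocytes, fell by 3.49 ± 0.16 (SE) in memory cells and fell by 3.57 ± 0.16 in naive cells. Pik3cg, the catalytic subunit of the G beta gamma-driven PI3 kinase, fell by 2.15 ± 0.15 in memory cells and fell by 3.35 ± 0.15 in naive cells. Of 9 tested phosphodiesterases of cyclic nucleotides, 2 rose and 5 fell in each cell type (medians -1.15 in memory and -0.99 in naive cells). Pde3b fell by 1.93 ± 0.11 in memory cells and fell by 2.14 ± 0.11 in naive cells. Pde4a rose by 0.94 ± 0.25 in memory cells and by 1.97 ± 0.25 in naive cells. Of 13 other regulators and arrestins, 2 rose and 9 fell in memory cells, and 3 rose and 7 fell in naive cells (medians -1.0 and -0.61). Gpsm3, a GoLoco protein of leukocytes, fell by 3.61 ± 0.11 in memory cells and fell by 4.20 ± 0.11 in naive cells, and Arrb1, an arrestin, fell by 3.59 ± 0.28 in memory cells and fell by 3.0 ± 0.28 in naive cells.

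Receptors upstream of these G proteins were also listed. Of 23 tested chemoattractant and lipid receptors, most of which couple to Gi, 13 were higher and 1 lower in memory cells at rest (median 0.92). After stimulation 10 were higher and 3 lower (median 0.41). The medians over all genes were -0.01 and -0.06. Of all genes, 13.9% were higher and 7.47% lower at rest, and 9.86% and 14.2% after stimulation. Ccr2 and Cxcr3, receptors of inflammatory chemokines, were higher in resting memory cells by 5.17 ± 0.32 and 4.56 ± 0.23 (SE). With stimulation 6 of the 23 rose and 13 fell in memory cells, and 8 rose and 10 fell in naive cells (medians -0.86 and -0.26). S1pr1, the sphingosine 1-phosphate receptor that lets lymphocytes leave lymph nodes, fell by 7.73 ± 0.26 in memory cells and fell by 7.08 ± 0.26 in naive cells.

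For each of the 7 members called in both responses, the genes with the most similar profile over the 16 arrays were taken by the root mean square difference in log2 level after each gene's own mean was removed. The closest to Rgs10 was Tanc1, at 0.128, and the closest to Rgs14 was Bbs9, at 0.165. For Rgs9 it was Gpc1, at 0.180, and for Rgs2 it was Man1a, at 0.250, with the thrombin receptor F2r at 0.251. Rgs11 lay closest to Sit1, a transmembrane adaptor of T cells, at 0.283. For Rgs1 and Rgs16 the closest genes with a symbol were Zfp296 at 0.364 and Tnfrsf21, a death receptor of the TNF receptor superfamily, at 0.375. These differences are not scaled to the size of a gene's own change, so they cannot be compared between members. The 16 arrays share their groups, so such likeness follows in part from the 4 group means.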

How the data were processed

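Per the labels, about 200 ng of total RNA per sample was amplified from an oligo-dT primer with a T7 promoter, labelled with Cy3 and hybridised to 1 Agilent array of 1 colour. Per the file headers, the authors deposited Feature Extraction 9.5.3.1 output with a processed signal intensity per spot, background-corrected but not scaled between arrays, with a flag for spots well above background, and probe positions on mm7. The labels do not state how the deposited value table of linear intensity was scaled: its median was 149 on each array, its lowest value 30, and its log2 correlation with the processed signals 0.975 to 0.984.

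Spots of a probe were averaged, log2 processed signals were set relative to the 75th percentile of the array, and probes well above background on at least 3 of 4 arrays of some group were kept (27350 of 41174). The brightest probe represented a gene (18404 genes). Symbols came from RefSeq (GRCm38.p6) where a record matched (32719 probes), and the other 8455 have the symbol of the files. limma 3.58.1 (R 4.3.3) fitted 5 contrasts over all 4 groups, with Benjamini-Hochberg adjustment over all genes. It was tested on simulated data. Upstream sequences were searched with Python 3.11.15.

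The members, gene lists and tests were chosen with earlier results of these data known. All members are named. Of other lists, the genes named are among the 3 largest changes that passed in a contrast described, or belong to lists of 12 or fewer. Genes most like a member were the nearest 3 by root mean square difference. The arrays carry replicate numbers. Same-numbered resting memory and resting naive arrays deviated together (correlations of 0.30 to 0.59 for the 4 numbers). At numbers 2 and 3 another number came close (0.34 against 0.30, and 0.30 against 0.25). A replicate block changed no member call between these groups. Same-numbered stimulated memory and stimulated naive arrays correlated at 0.49, 0.19, 0.05 and 0.33. There the block made Rgs11 and Rgs16 pass. The numbers may mark the 4 independent sorts, but this is not stated, so the main fit has no block. Nothing states that arrays came from separate mice, so p-values measure the spread between these samples. The number of arrays limits the precision. Alternatives tried were other background corrections, scalings, filters and probe choices, the deposited value table, a replicate block and leaving out arrays.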

Additional observations from a re-analysis of the deposited data

Results flagged for a closer look

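Among 60 groups of 4 arrays, 15 probes in 4 groups each, 7 had an array far from the other 3, and chance flags about 1 in 20 groups. In 6 of these 7 groups the array carried the number 1. Some of these are the same array at several probes. Probes share their arrays, so the 7 are not independent and the chance rate is only a rough guide. In stimulated naive cells, array 1 was low for Rgs1 (5.72), for the second Rgs2 probe (-3.98) and for the most 5′ Rgs3 probe (0.53). In resting naive cells, array 1 was high at that Rgs3 probe (0.69) and for Rgs11 (0.92). In resting memory cells, array 1 was low for Rgs10 (5.34). In stimulated memory cells, array 3 was high for Rgs19 at its brighter probe (2.36).

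The memory response minus the naive response of Rgs9 was -0.61 (limma adjusted p = 0.0428), and 10 of 27 alternatives kept that call.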

How the results depend on the processing

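Slide was not fitted as a block, since each slide holds 1 group. With the replicate block, Rgs11 was lower in stimulated memory cells (-0.65, adjusted p = 0.0267), a count of 1, and Rgs16 higher (0.41, 0.0496). The labels do not say what the number marks. Same-numbered correlations over 24 pairs ran from -0.21 to 0.59, 16 exceeded 0.1, and in 16 the own number correlated best, a hint from the data. The design text states 4 independent sorts and stimulations, which the numbers may mark, but no label ties them together. With normexp fitted on all spots, 2 members were lower in the naive response, 1 was higher at rest, 0 were higher after stimulation and 0 lower in the interaction. Its 3 failing arrays had 4, 15 and 13 spots more than 100 below background. Values that changed sign there were Rgs9 at 0.34 (naive), 0.78 (memory) and 0.45 (interaction), Rgs3 at -0.05 (memory) and -0.07 (stimulated), Rgs11 at 0.37 (stimulated) and 0.20 (interaction), and Rgs19 at -0.16 (stimulated) and -0.14 (interaction). Fitted without those spots (added after seeing the data), it left 1 higher after stimulation and 0 lower in the interaction, and Rgs3 turned to 0.06 (interaction). Quantile scaling, the deposited value table and every probe as its own feature each left 0 lower in the interaction. The first pair turned Rgs14 at rest to 0.04 and 0.04, and Rgs19 to 0.04 and 0.06. Without the 4 arrays numbered 1 (added after seeing the data), 1 member was lower after stimulation and 2 in the interaction, and Rgs14 turned to 0.12 (resting), -0.11 (stimulated) and -0.23 (interaction). Leaving out each array in turn gave 3 to 4 higher and 5 lower (naive), 3 higher and 4 to 5 lower (memory), 2 to 3 higher (resting), 2 to 3 higher and 0 to 1 lower (stimulated), and 0 to 2 lower (interaction). Differences that did not pass there spanned 0: at rest Rgs10 (0.00 to 0.08), Rgs11 (-0.11 to 0.45), Rgs14 (-0.13 to 0.15) and Rgs19 (-0.11 to 0.02). After stimulation these were Rgs2 (-0.35 to 0.19) and Rgs14 (-0.09 to 0.17), and in the interaction Rgs2 (-0.48 to 0.06), Rgs3 (-0.21 to 0.04) and Rgs14 (-0.10 to 0.19). The cause was not tested. The median change of all genes was 0.11 (naive) and -0.21 (memory), against -0.01 and -0.10 in the deposited value table and 0.35 and 0.64 with normexp on all spots. Low signals limit Rgs9 and Rgs18.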
